A study of Mus musculus with 6 samples.

Results

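Neuropilins, semaphorins and plexins form a family of guidance proteins that T cells share with neurons and blood vessels. The 10 genes described here are the co-receptor genes Nrp1 and Nrp2, the ligand genes Sema4a, Sema4b, Sema4d and Sema7a, and the receptor genes Plxna1, Plxnb2, Plxnc1 and Plxnd1, out of 22180 genes measured. They were chosen by name, with their levels in these arrays and their knockout minus wild type differences already known, so those differences are given as a description and not as a test. Where a gene had several probe sets annotated to exactly 1 symbol, the brightest on average over the 6 arrays was read. All 10 members had such a probe set. A further 21 genes of the 3 families were measured.

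The arrays held RNA of CD8+ T cells of C57BL/6 mice, taken fresh from spleen and peripheral lymph nodes and enriched with a magnetic kit. In 3 arrays the cells carried the label Dot1l knockout, from a cross of Dot1l flox/flox with CD4-Cre mice, and in 3 arrays the label wild type. The Cd4 promoter is active in thymocytes before the CD4 and CD8 lineages part, so the floxed gene is a target in both lineages. The sources used here do not say whether the wild type mice carried the floxed allele or Cre, or give age or pooling of animals. They also do not say that each array holds a different mouse. The p-values below therefore set each difference only against the spread among these samples, and that spread may be technical.

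Values are log2 expression from RMA, where a difference of 1 is a doubling of signal. Array medians ran from 3.69 to 3.78. The 95th percentile of the mean levels of 1373 olfactory and vomeronasal receptor genes, 3.82, served as a guide to background. The markers of CD8 T cells were far above it, with Cd8a at 10.87 to 11.23 over the 6 arrays, and Cd4 lay close to it at 3.60 to 4.03. Dot1l, the targeted histone methyltransferase gene, was not lower under the knockout label (7.30 ± 0.04 against 7.20 ± 0.25, SD, n = 3 each). The sources used here do not give the deleted exon, so this probe set does not check the labels. "Knockout" below means the label.

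As background, most secreted class 3 semaphorins bind a neuropilin. The neuropilin has a short tail without enzyme activity and passes the signal through a class A plexin. Membrane-bound class 4 semaphorins bind class B plexins or plexin D1 directly, and Sema7a, which is tethered to the membrane by a lipid anchor, binds plexin C1 and integrin alpha1 beta1. Plexins act through a cytoplasmic domain that switches off Ras-family and Rap GTPases, which changes adhesion and the cytoskeleton. In the immune system Nrp1 is known from thymus-derived regulatory T cells, plasmacytoid dendritic cells and tumour-infiltrating CD8 T cells. Sema4d (CD100) is abundant on resting T cells.

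Nrp1, Plxnc1, Plxna1 and Sema4a read higher in all 3 knockout arrays than in any wild type array and passed the test across all genes (limma, Benjamini-Hochberg adjusted p under 0.05). So 4 of 10 members were called higher and 0 lower, with 5 at an unadjusted p under 0.05. Over all genes tested, 4.30% were called higher, 1.20% lower and 5.50% in either direction. Because the members were picked with this contrast known, nothing is read from that difference in shares. The remaining members, Nrp2, Sema4b, Sema4d, Sema7a, Plxnb2 and Plxnd1, did not pass. The groups were apart in 5 members, the 4 above and Sema4d, all with the knockout higher. Over all genes the groups were apart in 23.5%, in 13.7% with the knockout higher and in 9.78% with the knockout lower. The median log2 difference of the 10 members was 0.26, against -0.01 over all genes.

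RefSeq promoter windows (GRCm38.p6, the 250 bases before a listed transcript start) were available for 9 of the 10 members in 16 entries, and none for Plxna1. The 3 stretches below belong to the members that read higher and had an entry. Capitals mark matches, on either strand, to the motifs searched, and each stretch reads 5′ to 3′ on the gene's strand. For Nrp1 and Plxnc1, whose windows lie wholly or partly inside the gene's own annotated span, 30 bases around a match are shown. For Sema4a the whole window before the outermost start of its 4 is shown. Among the 16 entries, only this one, that of Nrp2 and the outermost of Sema4b lay wholly outside the gene's span. The Nrp1 stretch is chr8:128358963-128358992 (plus strand, 110 to 81 bases before the listed start), the Plxnc1 stretch chr10:94944944-94944973 (minus strand, 128 to 99 bases before it) and the Sema4a stretch chr3:88461183-88461432 (minus strand).
Nrp1: tgtgcggggaggGGGCGGgaggaagggagg
Plxnc1: ttcacaatggGAAAGTGAAAcgcacaagcg
Sema4a: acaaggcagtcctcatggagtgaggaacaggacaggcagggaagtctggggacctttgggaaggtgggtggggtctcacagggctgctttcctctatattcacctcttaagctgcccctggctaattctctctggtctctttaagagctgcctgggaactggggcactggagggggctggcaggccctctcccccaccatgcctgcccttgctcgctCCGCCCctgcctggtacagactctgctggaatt

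The capitals in the Nrp1 and Sema4a stretches are GC boxes (GGGCGG, or CCGCCC on the other strand), a common element of promoters rich in G and C. A GC box was found in 13 of the 16 entries and in at least 1 entry of each of the 9 members, against 32.7% of the 32851 windows in the table. The members' windows were also rich in G and C, with a median of 64.2% against 52.4% over all windows. The capitals in the Plxnc1 stretch are the core of an interferon response element (GAAA, any 2 bases, GAAA). That core is held by 2.98% of all windows and by no other member's window. The Plxnc1 window also held 4 GC boxes, all outside the stretch shown. A STAT element (TTCNNNGAA), a T-box site (AGGTGTGA) and a TATA box (TATAAA) matched in no member's window, and an AP-1 element (TGANTCA) matched in 1 entry of Sema4d. These motifs occur in 7.02%, 1.12%, 12.4% and 6.75% of all windows in that order. A match describes letters in these windows and does not show that a factor binds there.

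**Figure D1:**
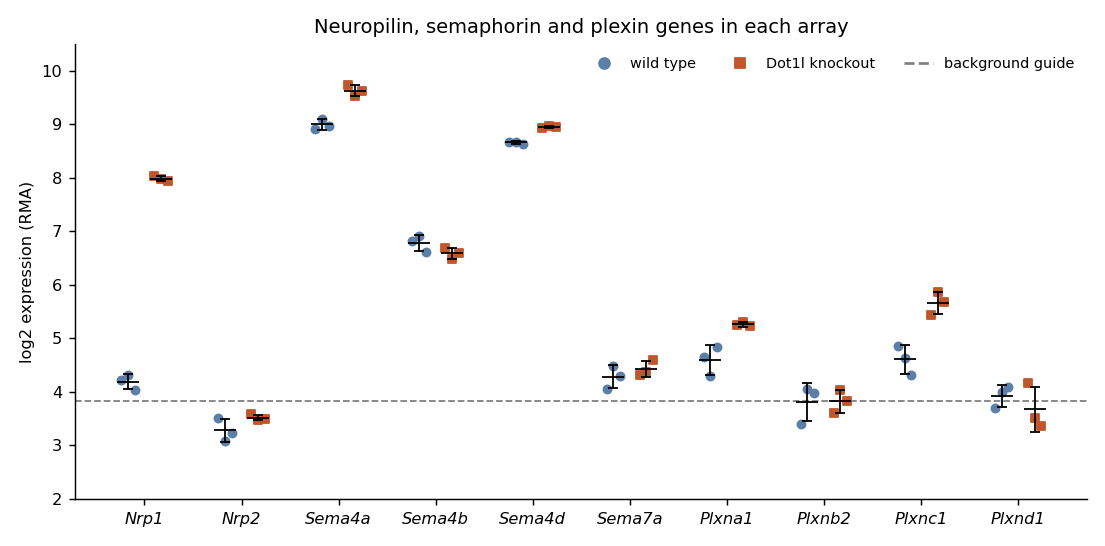
Log2 expression of the 10 genes in each of the 6 arrays (circles, wild type; squares, Dot1l knockout; black bars, mean and SD of 3 arrays; dashed line, the background guide of 3.82). The Nrp1 squares lie at 7.95 to 8.03 and its circles at 4.03 to 4.31, while the points of Nrp2, Sema4b, Sema7a, Plxnb2 and Plxnd1 overlap between the groups.

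Among the co-receptors, Nrp1 carried the largest positive difference of all 22180 genes, and the third largest in size. The wild type arrays read 4.22, 4.31 and 4.03 and the knockout arrays 8.03, 7.97 and 7.95. The groups stood far apart, and the knockout arrays lay closer together than the wild type arrays. The difference was 3.80 (SE 0.11), a 13.9-fold difference, between 4.19 ± 0.14 and 7.98 ± 0.04 (SD, n = 3 each). The wild type level was slightly above the background guide, where RMA is known to compress differences.

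Nrp2, the other neuropilin, which binds a different set of class 3 semaphorins and VEGF-C, stayed below the guide in both groups. It read 3.52, 3.09 and 3.23 in wild type and 3.58, 3.48 and 3.50 in knockout arrays. The groups overlapped, and the log2 difference was 0.24 (SE 0.13).

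The ligands Sema4a, Sema4b, Sema4d and Sema7a were above the guide in both groups. Sema4a, a class 4 semaphorin known as a costimulator in T cell priming, read 8.91, 9.11 and 8.98 in wild type and 9.74, 9.53 and 9.62 in knockout arrays. Every knockout array was above every wild type array. The difference of 0.63 (SE 0.11) is a 1.55-fold higher signal, from 9.0 ± 0.10 to 9.63 ± 0.10.

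Sema4d read 8.67, 8.67 and 8.63 in wild type and 8.92, 8.98 and 8.95 in knockout arrays. Its replicates were tighter than those of nearly all genes, with a residual SD of 0.02 at percentile 0.225 of the 22180. The groups were apart by a difference of 0.29. Its SE was 0.09, since limma takes part of each gene's error from all genes, and the gene did not pass. It passed with trend and robust fitting, which models the error by expression level.

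Sema4b and Sema7a overlapped between the groups. Sema4b, a class 4 ligand, read 6.81, 6.91 and 6.62 in wild type and 6.68, 6.48 and 6.60 in knockout arrays, a difference of -0.19 (SE 0.12). Sema7a read 4.06, 4.49 and 4.30 in wild type and 4.32, 4.38 and 4.60 in knockout arrays, a difference of 0.15 (SE 0.14). Neither was called under any of the other settings run.

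Among the receptors, Plxnc1, the plexin that binds Sema7a, had the second largest difference of the 10. It read 4.87, 4.63 and 4.32 in wild type and 5.44, 5.86 and 5.69 in knockout arrays. The groups did not overlap, and the difference was 1.06 (SE 0.16), a 2.08-fold higher signal, from 4.61 ± 0.27 to 5.66 ± 0.21. Sema7a, its ligand, differed by 0.15 in the same arrays, as given above.

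Plxna1, a class A plexin that signals with Nrp1, read 4.65, 4.30 and 4.84 in wild type and 5.25, 5.31 and 5.23 in knockout arrays. The wild type arrays spread more widely than the knockout arrays, the groups did not overlap, and the difference was 0.67 (SE 0.14), from 4.60 ± 0.28 to 5.26 ± 0.04. A second Plxna1 probe set, at 3.26 ± 0.18 in wild type and 3.29 ± 0.07 in knockout arrays, was below the guide and differed by 0.02. Averaging both gave 0.34, which did not pass. The call also ended without wild type replicate 1 and without knockout replicate 1, 2 or 3, and after another quantile normalization (0.48).

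Plxnb2 and Plxnd1 were near the guide. Plxnb2, a receptor for class 4 semaphorins, read 3.41, 4.06 and 3.98 in wild type and 3.60, 4.03 and 3.83 in knockout arrays, a difference of 0.01 (SE 0.18) whose sign changed in 4 of 12 other settings. Plxnd1, which binds Sema3e and Sema4a, read 3.70, 4.0 and 4.08 in wild type and 4.16, 3.50 and 3.36 in knockout arrays. Knockout replicate 1 was the highest of the 6 and the other two knockout arrays the lowest, so the difference of -0.25 (SE 0.20) describes no common shift. In all, 8 of the 10 members exceeded the guide in at least 1 group, Nrp2 and Plxnb2 in neither and Plxnd1 in wild type alone.

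The other 21 measured genes of the families were mostly at background, with 14 below the guide in both groups. Of these 21, 1 passed as higher and 0 as lower, with 2 at an unadjusted p under 0.05 and a median difference of -0.05. The gene that passed was Sema4f, a class 4 semaphorin known from the nervous system. It read 5.50, 5.72 and 5.36 in wild type and 6.34, 6.14 and 6.01 in knockout arrays, a difference of 0.64 (SE 0.13, adjusted p = 0.0219). Every knockout array was above every wild type array. The call ended without wild type replicate 1 or 3 and without knockout replicate 1 or 2 (adjusted p from 0.0588 to 0.0905), and after another quantile normalization (0.46, adjusted p = 0.106).

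The next brightest of these probe sets overlapped between groups. Sema3f, a secreted ligand that binds neuropilin-2, differed by 0.42 (SE 0.16, adjusted p = 0.197). Sema5b differed by -0.15 (SE 0.12), Sema6a by -0.42 (SE 0.19) and Sema6d by -0.12 (SE 0.18), and none of these passed. Of 7 class 3 semaphorin genes, most of them for secreted ligands of neuropilins, 6 were below the guide in both groups, and Sema3f was the exception. Of 9 plexin genes, 6 were below it in both groups.

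**Figure D2:**
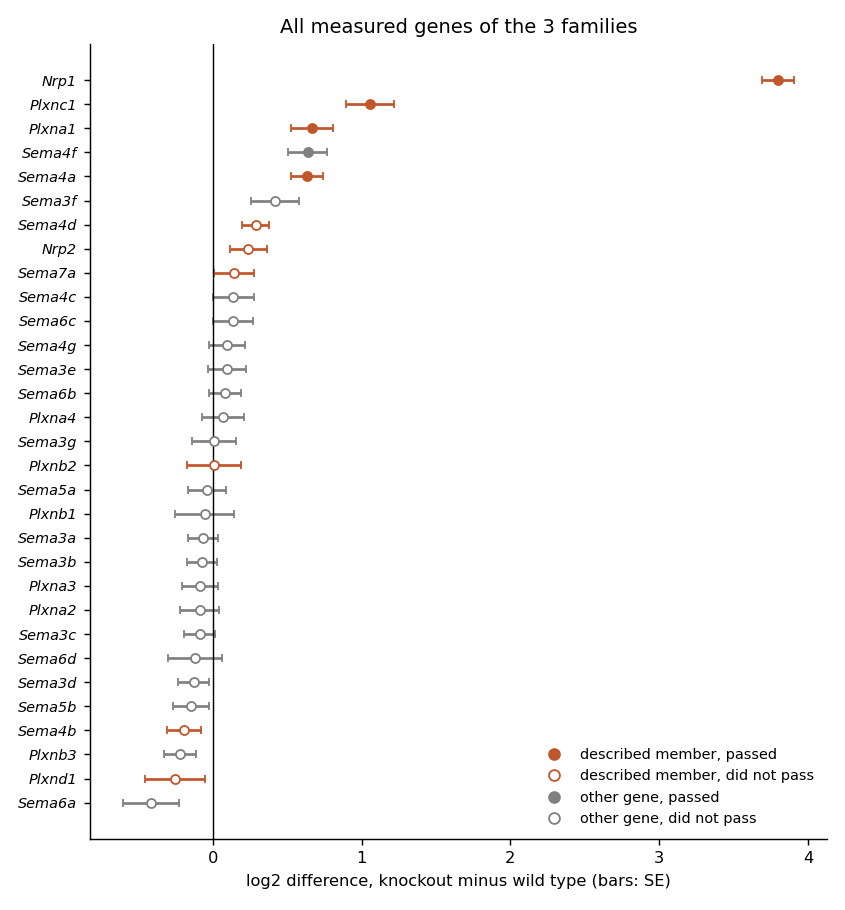
Log2 difference, knockout minus wild type, with its standard error for all 31 measured neuropilin, semaphorin and plexin genes (orange, the 10 genes described; grey, the other 21; filled, passed at an adjusted p under 0.05). Nrp1 stands alone at 3.80, followed by Plxnc1 at 1.06, and most other genes lie close to 0.

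The families' partners were read from lists of ligands, signalling proteins and proteases, of which 55 of 59 genes had a probe set with 1 symbol. Of these 55, 4 rose and 3 fell, with 18 at an unadjusted p under 0.05, a share called of 12.7% beside 5.50% over all genes. The lists were chosen with earlier results known. Moreover, 41 of the 55 exceeded the guide in at least 1 group, against 11849 of all 22180 genes. Nothing is therefore read from the difference in shares. After another quantile normalization the split was 4 higher and 5 lower, and after median centring 4 and 4. All genes gave 954 higher and 266 lower as deposited, 625 and 470 after that normalization and 755 and 342 after centring.

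Partners at the cell surface and their ligands held the largest of these changes. Of 18 measured, 3 rose and 0 fell, with a median difference of 0.00. Itgb1, the beta1 integrin chain that pairs with alpha1 to bind Sema7a, read 8.89, 9.07 and 9.09 in wild type and 10.57, 10.37 and 10.45 in knockout arrays (1.45, SE 0.11, adjusted p = 9.5e-05). Itga1, the alpha1 chain, rose from 3.97 ± 0.19 to 4.71 ± 0.02 (0.74, SE 0.12, adjusted p = 0.00596). Both chains of the Sema7a-binding integrin, and Plxnc1, read higher in every knockout array than in any wild type array, as did 13.7% of all genes. Itgb1 and Itga1 are named because they passed, so no pattern is read from this. Itga1 lay near the guide in wild type, at 3.79, 3.94 and 4.16.

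Vegfa, a growth factor that binds Nrp1, read 4.50, 4.57 and 5.03 in wild type and 5.74, 5.83 and 5.91 in knockout arrays (1.13, SE 0.15, adjusted p = 0.00213). Its receptor genes Kdr and Flt1 were below the guide in both groups. The other growth factor genes of the list did not pass. Tgfb1 differed by -0.11 (SE 0.12), Vegfb by 0.19 (SE 0.12) and Vegfc by -0.05 (SE 0.15), with overlapping groups. Hgf (-0.28, SE 0.11, adjusted p = 0.197) and Vegfd (0.21, SE 0.10, adjusted p = 0.326) had groups apart but lay below the guide in both, as did Pgf (0.02, SE 0.10). Gipc1, an adaptor that binds the neuropilin tail, differed by -0.10 (SE 0.16).

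Of 16 kinases and cytoskeleton effectors, 0 rose and 3 fell, with 8 at an unadjusted p under 0.05 and a median of 0.02. Those that fell were a pair of collapsin response mediator genes, which relay class 3 semaphorin signals to microtubules, and a scaffold gene that binds plexin A. Dpysl2 read 9.63, 9.64 and 9.61 in wild type and 9.02, 9.14 and 9.23 in knockout arrays (-0.50, SE 0.10, adjusted p = 0.0207). Every knockout array was below every wild type array. Crmp1 fell by 0.52 (SE 0.11, adjusted p = 0.0231) and Ranbp9 fell by 0.47 (SE 0.10, adjusted p = 0.0236).

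In the 6 fits that each left out 1 array, Dpysl2 passed only without wild type replicate 2, Crmp1 only without wild type replicate 3, and Ranbp9 only without wild type replicate 1 or 2. Across the fits that ended a call, adjusted p lay between 0.0506 and 0.113, and each difference stayed negative. The Mical genes, enzymes that oxidise actin downstream of plexin A, did not pass. Mical1, Mical2 and Mical3 differed by 0.29 (SE 0.10), 0.54 (SE 0.15) and 0.36 (SE 0.10), with adjusted p from 0.0687 to 0.152.

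The small GTPases through which plexins act, with their regulators, had 0 of 15 called in either direction by limma, with 5 at an unadjusted p under 0.05. The smallest p-values belonged to Rnd3 (0.60, SE 0.17, adjusted p = 0.0778), and Rras2 (-0.37, SE 0.12, adjusted p = 0.12). Rnd3 was below the guide in wild type, at 3.57 ± 0.28. Rras2 passed in the fit with trend and robust fitting, at an adjusted p of 0.0369.

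Among 6 protease genes, Furin, the convertase that cleaves many secreted precursors and semaphorins, rose from 7.79 ± 0.08 to 8.34 ± 0.07 (0.54, SE 0.10, adjusted p = 0.013). Leaving out wild type replicate 3, knockout replicate 1 or knockout replicate 3 ended that call, with adjusted p from 0.0508 to 0.0708. Pcsk5, another convertase, was below the guide in both groups and differed by -0.21 (SE 0.11, adjusted p = 0.368). The sheddase genes Adam10 and Adam17 differed by -0.15 (SE 0.09) and -0.04 (SE 0.10) and did not pass.

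**Figure D3:**
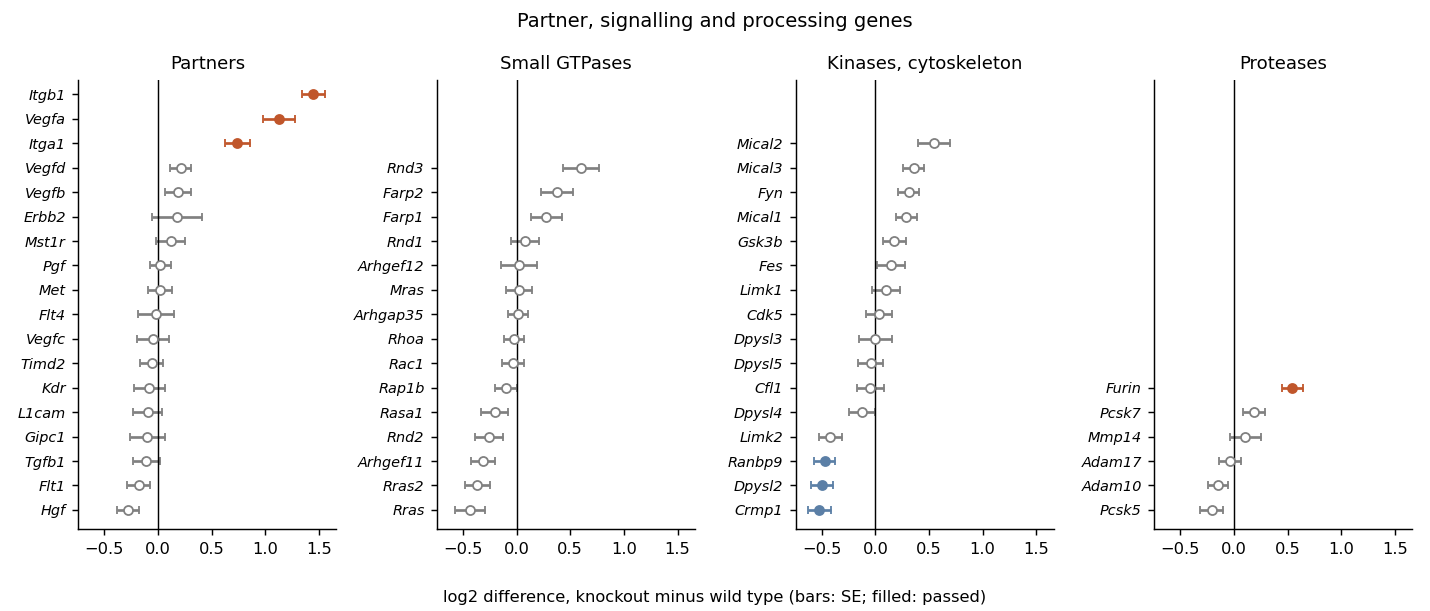
Log2 difference, knockout minus wild type, with its standard error for the 55 measured partner, signalling and protease genes in 4 lists (filled orange, passed as higher; filled blue, passed as lower; open grey, did not pass). Itgb1, Vegfa, Itga1 and Furin are the filled points to the right of 0, and Ranbp9, Dpysl2 and Crmp1 those to the left.

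The array profile most like that of Nrp1 was sought among 11848 other genes above the guide in at least 1 group, as the root mean square distance between values centred on each gene's mean over the 6 arrays. The nearest were Ifitm3, an antiviral membrane protein (distance 0.44), Il12rb2, an interleukin-12 receptor chain (0.54), Fasl, a death ligand (0.59), Emp1, an epithelial membrane protein (0.60), and Ogfrl1 (0.62). Ifitm3 read 4.54, 4.75 and 4.81 in wild type and 7.39, 8.02 and 7.90 in knockout arrays. Groups this far apart follow from the choice by likeness to Nrp1. The log2 differences of the 5 lay between 2.64 and 3.07, below that of Nrp1, and Emp1 differed by 1.36 when its probe sets were averaged. The measure favours genes with large rises. In the order listed, the 5 genes ranked 2, 3, 6, 5 and 4 by size of rise, directly after Nrp1. The search thus returned the next largest rises and shows no likeness to Nrp1 beyond that.

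Because Nrp1 and several plexins and semaphorins are also made by other cells, markers of those cells were read in the same arrays. In bulk RNA, fewer cells of a type and less RNA per cell cannot be told apart. Of 7 markers of CD4 and regulatory T cells, 2 rose and 1 fell. Ikzf2 (Helios) rose from 6.79 ± 0.13 to 7.95 ± 0.14 (1.16, SE 0.12, adjusted p = 0.000473). Il2ra rose by 0.69 (SE 0.14), and Cd40lg fell by 0.88 (SE 0.15), to below the guide in knockout arrays (3.05 ± 0.09). Foxp3, which defines regulatory T cells, read 5.01, 5.53 and 4.72 in wild type and 4.80, 4.92 and 4.78 in knockout arrays, and Cd4 differed by 0.06. The summed linear signal of this list was 237 to 242 in wild type and 352 to 400.4 in knockout arrays. Ikzf2 alone carried that difference: without it the sums were 120.4 to 137 and 125 to 126, and the median log2 difference of the list was -0.03.

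Of 6 markers of plasmacytoid dendritic cells 1 rose, Tcf4 (0.77, SE 0.14, adjusted p = 0.0122), and the other 5 differed downwards without passing, with a list median of -0.13. Pacsin1 had groups apart, at 6.92 ± 0.20 in wild type and 6.45 ± 0.05 in knockout arrays (-0.47, SE 0.12, adjusted p = 0.0567). Ccr9 differed by -0.30 (SE 0.19) and Cox6a2 by -0.22 (SE 0.14). Siglech, which defines these cells, was below the guide in both groups. Their summed signal was 225 to 273 in wild type and 194 to 237 in knockout arrays. Without Pacsin1, the brightest probe set of the list, the sums were 117 to 133 in wild type and 108 to 146 in knockout arrays.

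Of 9 B cell markers 3 rose (summed signal 200.2 to 245 against 287 to 347), of 5 NK cell markers 2 rose (110.4 to 133 against 152 to 169.98), and of 7 conventional dendritic cell markers 1 rose (303 to 409 against 301 to 332). Of 10 markers of monocytes, macrophages and neutrophils 1 rose (143 to 170.3 against 158 to 166), and of 10 markers of endothelium and stroma 0 were called by limma, with 1 at an unadjusted p under 0.05 (666 to 681 against 582 to 626). The B cell genes that rose were Cd22 (1.29), Ms4a1 (1.13, below the guide in wild type) and Cd79a (0.86). Cd79b, the brightest probe set of that list (0.24, SE 0.13), Fcer2a (0.42, SE 0.17) and Blk (-0.09, SE 0.15) did not pass. The B cell factor genes Pax5 and Ebf1, and Cr2, were below the guide in both groups. All 5 NK cell markers differed upwards, with a median of 0.44. Klri2 (0.78, SE 0.13) and Tyrobp (0.43, SE 0.10) were called. Klrb1c (0.90, SE 0.31), Ncr1 (0.44, SE 0.12) and Fcer1g (0.02, SE 0.14) did not pass. Of the conventional dendritic cell markers, 5 of 7 were below the guide in both groups, Zbtb46 and Batf3 among them. The others were Itgax and Cd209a. Itgax rose by 1.14 (SE 0.16, adjusted p = 0.00324). Cd209a, the brightest probe set of the list, read 8.10 ± 0.26 in wild type and 7.73 ± 0.09 in knockout arrays and did not pass. Without Cd209a the summed signal of that list was 71.6 to 87.6 in wild type and 89.9 to 108 in knockout arrays. Of the monocyte, macrophage and neutrophil markers, 6 of 10 were below the guide in both groups. Above it were Itgam, which rose by 0.60 (SE 0.12, adjusted p = 0.0214), and Cd68, Csf1r and Lyz2, which did not pass. Of the endothelium and stroma markers, 6 of 10 were below the guide in both groups, Tek and Cdh5 among them. Pecam1 (9.14 ± 0.01 in wild type, 8.93 ± 0.05 in knockout arrays) carried the lower sum of that list, which without it was 104 to 114 in wild type and 111 to 122 in knockout arrays. Pdgfrb, the gene with an unadjusted p under 0.05, differed upwards by 0.54 (SE 0.16).

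Of 7 markers of CD8 T cells 0 were called by limma, with 1 at an unadjusted p under 0.05 and a summed signal of 13466 to 14631 in wild type and 13550 to 14060 in knockout arrays. The part of the other cell types in the values of Nrp1 and the other members was not tested.

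**Figure D4:**
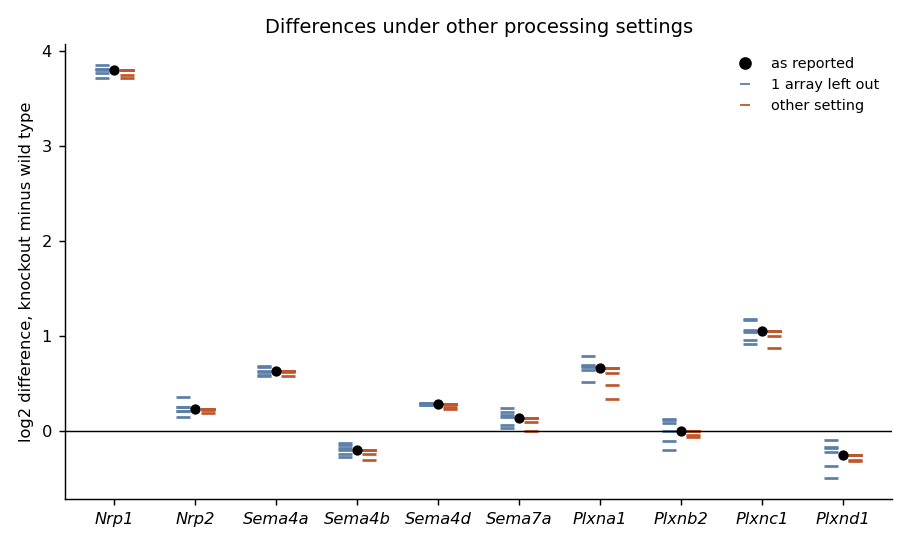
Log2 difference of each of the 10 genes as reported (black), with 1 array left out (blue) and under the other settings (orange). Nrp1 stays between 3.72 and 3.86, Plxnc1 between 0.88 and 1.19 and Sema4a between 0.58 and 0.69, while Plxna1 ranges from 0.34 to 0.79.

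Nrp1, Plxnc1 and Sema4a passed in all 6 fits that left out 1 array and in the 7 other settings run for them. Nrp1 lay between 3.72 and 3.86 across the fits that left out an array, Plxnc1 between 0.91 and 1.19 and Sema4a between 0.58 and 0.69. Rescaling lowered the differences slightly, to 3.72 for Nrp1, 0.88 for Plxnc1 and 0.58 for Sema4a at the least.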

How the data were processed

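The authors deposited log2 expression values, and the submitters' processing notes name RMA and R 3.1.1. The sources used here give no RMA settings, annotation version or genome build. Of 41345 probe sets, 23521 named 1 symbol, 1814 several and 16010 none in the platform annotation, and 1-symbol probe sets gave 22180 genes. All 10 members matched RefSeq by gene identifier. Precision is limited by 3 arrays per group, since arrays have no count depth. Knockout minus wild type was fitted over all genes by lmFit and eBayes without covariates (limma 3.58.1, R 4.3.3), with Benjamini-Hochberg adjustment. The fit was tested on simulated data first. It recovered 28% of 50 genes changed by a log2 amount of 0.5, 84% of those changed by 1 and 98% of those changed by 2. A gene that did not pass may therefore still differ.

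The members and lists were chosen with earlier results of these data known. Named genes were the members, other family genes that passed or were among the 5 brightest, list genes that passed or had the 2 smallest p-values, and the 5 profiles nearest Nrp1. Markers, and list genes given for their role, were named after their values were seen. Alternatives were leaving out each array, the replicate number as a block, quantile normalization, median centring, level filters, trend with robust fitting, the mean of probe sets and a stricter threshold.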

Additional observations from a re-analysis of the deposited data

How the results depend on the processing

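With 1 array left out, the count of genes passing lay between 615 and 1307 (1220 with all arrays), of members between 3 and 4, of other family genes between 0 and 1, and of partner, signalling and protease genes between 3 and 6 of the 7. The member lost was Plxna1. At an adjusted p under 0.01 the counts were 534 genes, 3 members, 0 other family genes (2 at an unadjusted p under 0.05) and 3 list genes. After another quantile normalization 0 other family genes passed. The replicate number as a block left 4 list genes, without Dpysl2, Crmp1 and Ranbp9, and 4 members. Deviations of same-numbered arrays correlated at -0.07, -0.16 and -0.07, which gives no sign of pairing by number. With 3 arrays per group, centred on their own mean, this cannot exclude a pairing. No called gene changed sign among the members, other family genes, list genes and Nrp1 neighbours named here. The cell type markers were not read under these settings. Probe sets near background limit what can be said of Nrp2, Plxnb2 and Plxnd1.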
